A study of Drosophila melanogaster with 36 samples.

Results

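The flies described here had been kept for 1 h at 36 °C and were sampled 4 h later, and they were set against untreated flies. The 4 h arrays held heat-selected flies (2 arrays) and non-selected flies (2 arrays), and the untreated arrays held the same lines (2 arrays each). These 8 arrays, chosen by their labels alone, are 8 of the 36 in a series that also sampled both lines at 0.25, 1, 2, 8, 16, 32 and 64 h. All RNA was total RNA from whole adult females of Drosophila melanogaster, and each line and time had 2 biological replicates, numbered 1 and 2. The selected line had been selected for heat resistance, and the non-selected line was its control. The labels do not give the number of selected populations, the age of the flies, how many were pooled, or the hour of collection. The labels name no untreated flies for the 4 h time, so heat, time of day and 4 h of age cannot be told apart. In whole-fly RNA, fewer cells of a type and less RNA per cell also cannot be told apart.

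In flies as in other animals, heat unfolds proteins and releases the transcription factor Hsf, which switches on genes for heat shock proteins. These chaperones hold unfolded proteins and refold them, and proteins that cannot be rescued are tagged with ubiquitin and passed to the proteasome or to autophagy. As folding capacity recovers, Hsf is shut off again, so the hours after heat are a phase in which chaperone messages are known to decline. The midgut of the adult fly makes digestive proteases and lysozymes, and its output is known to follow feeding and stress.

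Values are intensities on a 1-colour array, compared on the log2 scale, where a difference of 1 is a 2-fold change. On the 8 arrays, between 7508 and 7615 probe sets had at least 32 units of intensity. The labelled sex and tissue were checked against markers. The 3 yolk protein genes summed to 41915 to 56747 in 4 h flies and 48939 to 70160 in untreated flies, and all 17 measured genes of the male reproductive tract stayed under 32 on all 8 arrays. The 3 measured photoreceptor markers summed to 2077 to 4584 in 4 h flies and 2017 to 4769 in untreated flies. Signal of the 3 measured muscle markers varied widely inside each group, from 3798 to 12035 in 4 h flies and 2567 to 15949 in untreated flies. The replicate numbers differed in the 3' to 5' signal of control transcripts, and the cause was not tested. For control transcripts, the log2 ratio of signal at the 3' end over that at the 5' end was 2.35 ± 0.20 in replicate 1 and 1.63 ± 0.11 in replicate 2 (SD, n = 4 each), without overlap. It was 1.97 ± 0.43 in 4 h flies and 2.00 ± 0.46 in untreated flies (SD, n = 4 each), and each group held both numbers. The fit held the replicate number as a block, a term that removes a constant difference between the numbers.

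At 4 h, 63 of 8199 tested probe sets passed the threshold, an adjusted p under 0.05, which is 0.768% of those tested. Of these, 40 were higher (0.488%) and 23 lower (0.281%) than in untreated flies. The adjusted p-values are from limma with Benjamini-Hochberg adjustment over all tested probe sets. The change was 2-fold or more for 26 of the 63, with 14 higher and 12 lower. All 63 had the same sign in both replicate numbers and in both lines, and for 53 the 4 h arrays did not overlap the untreated arrays. The 63 were chosen on the mean of these same arrays, so this agreement is partly built in. Of all tested probe sets, 2.67% lay wholly higher at 4 h and 1.40% wholly lower. Over all tested probe sets the median log2 change was 0.02, and 56.4% were above 0. Without the replicate block, 29 of the 63 stayed past the threshold, 18 of them higher and 11 lower. The count fell to 27 without selected 4 h replicate 2 and to 35 without selected untreated replicate 2. It was 40 without selected 4 h replicate 1 and also 40 without non-selected untreated replicate 2. Replicate number 1 alone gave 180 calls, of which 22 were among the 63, and replicate number 2 alone gave 47, of which 11 were. The fits within a replicate number held line and time as separate terms, so their counts do not compare directly with the 63. A single gene symbol was available for 52 of the 63 probe sets, while 8 carried several symbols and 3 carried no symbol.

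Heat shock genes led the transcripts that were higher at 4 h. The heat shock list had 8 tested genes: 4 rose, none fell and the other 4 did not pass. Of all tested probe sets, 0.488% passed as higher. The 8 changes were all above 0, with a median of 0.65 on the log2 scale against 0.02 over all tested probe sets. Hsp68, a heat-induced relative of Hsp70, had intensities of 6619 and 6870.2 in selected 4 h flies and 9521 and 5805 in non-selected 4 h flies. The same probe set read 496 and 682 in selected untreated flies and 491 and 283 in non-selected untreated flies. Every 4 h array lay far above every untreated array. The log2 change of Hsp68 was 3.93 ± 0.26 (SE), a 15.2-fold difference (limma adjusted p = 9.05e-09).

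The next highest change among single genes of the list was that of stv, or starvin, a BAG-domain co-chaperone that works on Hsp70. It read 1715 and 1402 in selected and 1716 and 847 in non-selected 4 h flies, against 317 and 256 in selected and 299.8 and 117 in non-selected untreated flies. The lowest array of each group was the non-selected replicate 2 array, and the groups did not overlap. The change of stv was 2.57 ± 0.25 (SE), or 5.92-fold (limma adjusted p = 3.17e-06). Both genes passed in all 8 fits that left out 1 array and without the block.

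Hsp26 and Hsp27 are small heat shock proteins, which hold unfolded proteins without using ATP, and both rose by less than 2-fold. Hsp26 had 12672 and 15572 in selected and 10823 and 13791 in non-selected 4 h flies, against 6437 and 9661 in selected and 6701 and 8473 in non-selected untreated flies. Within each line and group the replicate 2 array was above the replicate 1 array, and the groups did not overlap. The change of Hsp26 was 0.77 ± 0.12 (SE), or 1.70-fold (limma adjusted p = 0.00274), and it missed the threshold without the block (limma adjusted p = 0.258). Hsp27 had 5948 and 6547 in selected and 5462 and 7694 in non-selected 4 h flies, against 3157 and 4046 in selected and 3371 and 4679 in non-selected untreated flies. The arrays again did not overlap, and the change was 0.76 ± 0.16 (SE), or 1.69-fold (limma adjusted p = 0.0209). The call for Hsp27 was lost in each of the 8 fits that left out 1 array (limma adjusted p from 0.0577 to 0.133) and without the block (0.408), and with arrays centred on their medians (0.0556).

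The other 4 members of the list were closer to their untreated levels. DnaJ-1, the Hsp40 partner of Hsp70, read 2815, 3299, 3195 and 2721 on the 4 h arrays, against 1978, 2334, 1844 and 2063 on the untreated arrays, with no overlap. Its change of 0.55 ± 0.15 (SE) did not pass (limma adjusted p = 0.0989). The small heat shock gene l(2)efl, the regulator Hsf and Stip1, which links Hsp70 to Hsp90, had changes of 0.21, 0.18 and 0.13, with overlapping arrays. Several well known heat shock genes have no probe set with a single symbol in this annotation and are not among the 8.

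Further probe sets, picked out after their values were seen, were assigned to several heat shock genes at once or to no gene. One annotated to both Hsp22 and CG4456 read 4682, 5353, 5371 and 3588 at 4 h, against 255, 407, 324 and 184 untreated, a log2 change of 4.06 ± 0.37 (SE; limma adjusted p = 8.92e-07). A second probe set for the same pair had a smaller change of 1.45 ± 0.25 (SE; limma adjusted p = 0.00473), at least 2.07-fold. One annotated to 4 copies of Hsp70B, the main inducible Hsp70 of the fly, read 9439.6, 10524, 9879 and 4897 at 4 h, against 3340.5, 4060.1, 2460.4 and 1302 untreated. Its change was 1.70 ± 0.30 (SE; limma adjusted p = 0.00473), and its copies cannot be told apart here. The lowest 4 h array was only a little above the highest untreated array. The same probe set was below its untreated level later on, by a log2 change of -2.38 at 16 h, -3.42 at 32 h and -3.56 at 64 h (limma adjusted p = 6.23e-05, 9.35e-07 and 3.62e-07). A second probe set, annotated to these copies and to CG5608, had a change of 0.91 ± 0.21 (SE; limma adjusted p = 0.0388) at 4 h, kept in 2 of 8 fits that left out 1 array and lost without the block (0.0581). The highest change of all, 5.33 ± 0.25 (SE), or 40.2-fold, belonged to a probe set without a symbol. It read 6386, 7628, 8458 and 5085 at 4 h, against 153, 182, 265 and 109 untreated. A second unnamed probe set read 233, 254, 239 and 137 at 4 h and was under 32 on every untreated array, at least 6.55-fold higher at 4 h.

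**Figure D1:**
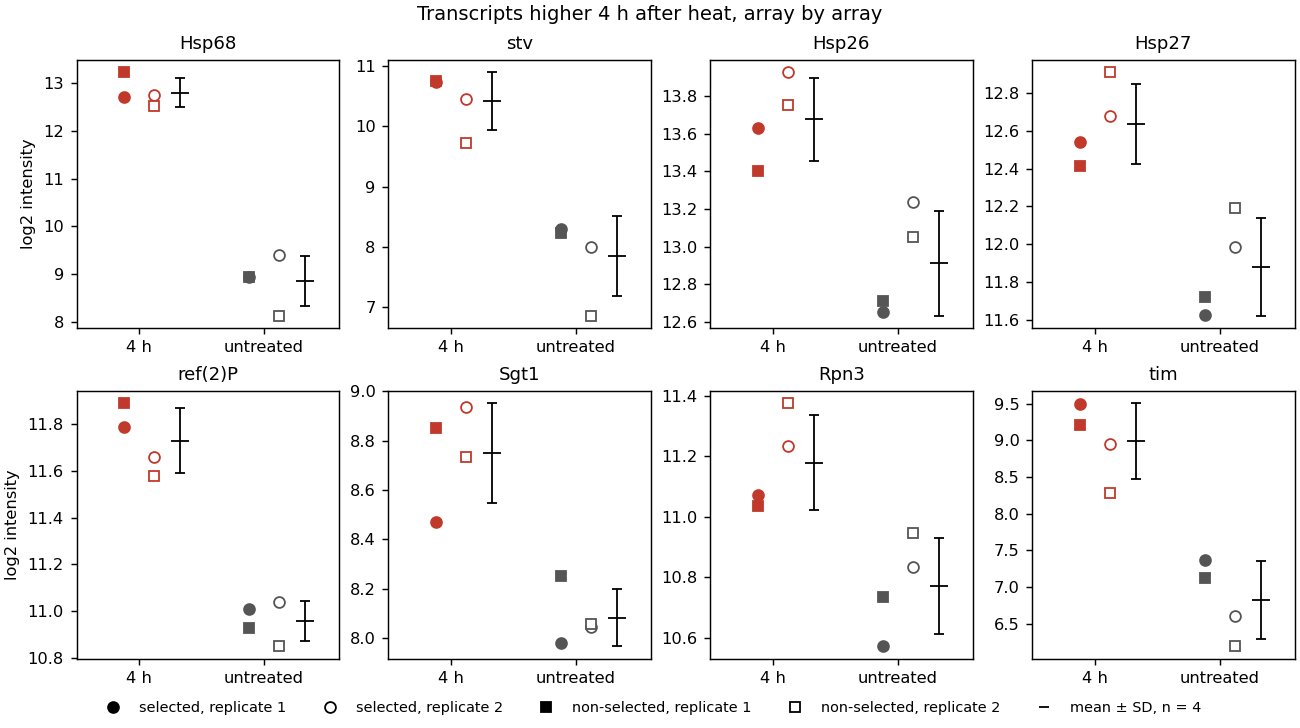
Each panel plots the log2 intensity of 1 transcript on the 4 arrays at 4 h (red, left) and the 4 untreated arrays (grey, right). Circles are selected and squares non-selected flies, filled for replicate 1 and open for replicate 2, and bars are the mean ± SD of 4 arrays; in all 8 panels every 4 h array lies above every untreated array, and the axes differ between panels and do not start at 0.

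Genes that dispose of damaged proteins were also among those higher at 4 h, by less than 2-fold. The gene ref(2)P encodes the fly counterpart of the mammalian p62 adaptor, which binds ubiquitin-tagged proteins and brings them to autophagosomes. It read 3539 and 3238 in selected and 3796 and 3057 in non-selected 4 h flies, against 2062 and 2102 in selected and 1944 and 1844 in non-selected untreated flies. The spread inside each group was small beside the gap between them. The change of ref(2)P was 0.77 ± 0.08 (SE), or 1.71-fold (limma adjusted p = 9.69e-06), and the call stayed in all 8 fits that left out 1 array and without the block.

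The proteasome list held 26 tested subunit genes, of which 2 rose, none fell and 24 did not pass. Over all tested probe sets, 0.488% passed as higher. All 26 changes were above 0, from 0.13 to 0.43, with a median of 0.26 against 0.02 over all tested probe sets. In 10 of the 26 the 4 h arrays lay wholly above the untreated arrays, against 2.67% of all tested probe sets. The median of the 26 was 0.24 in replicate 1 and 0.30 in replicate 2, and 0.31 in selected and 0.20 in non-selected flies.

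Rpn3, a subunit of the lid of the regulatory particle, read 2153 and 2408 in selected and 2100.1 and 2658 in non-selected 4 h flies, against 1523 and 1826 in selected and 1706 and 1975 in non-selected untreated flies. The 4 h arrays were all above the untreated ones, by a log2 change of 0.41 ± 0.08 (SE), or 1.33-fold (limma adjusted p = 0.0142). Rpt3, an ATPase of the base, read 710.4, 838, 689.8 and 704 at 4 h, against 467, 604, 547 and 576 untreated. Its change was 0.43 ± 0.10 (SE; limma adjusted p = 0.0405), also without overlap. Both calls were lost without the block (limma adjusted p = 0.901 for Rpn3 and 0.751 for Rpt3). When 1 array was left out, Rpn3 kept its call in 3 of 8 fits and Rpt3 in 2 of 8, with limma adjusted p reaching 0.116 for Rpn3 and 0.249 for Rpt3. With arrays centred on their medians the adjusted p was 0.0575 for Rpn3 and 0.0559 for Rpt3.

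Sgt1 and Edem2, named after their values were seen, act in neighbouring steps. Sgt1, a co-chaperone of Hsp90, read 355, 490.2, 462 and 425 at 4 h, against 252, 264, 305 and 266 untreated, and rose by 0.66 ± 0.13 (SE; limma adjusted p = 0.0118). Edem2, which helps to send misfolded glycoproteins out of the endoplasmic reticulum for destruction, read 182, 120.5, 161 and 149.9 at 4 h, against 101, 88.5, 119.6 and 94.8 untreated. It rose by 0.60 ± 0.11 (SE; limma adjusted p = 0.00522). Neither gene overlapped between groups, and neither passed without the block (limma adjusted p = 0.138 and 0.172).

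The chaperones that cells make without heat did not share these calls. Of 24 constitutive chaperone genes, among them Hsc70-4 and the CCT ring subunits that fold actin and tubulin, none passed in either direction, and their median change was 0.10. Hsc70-4, the abundant cytosolic Hsp70 of unstressed cells, had a change of -0.02 ± 0.08 (SE). Of 15 genes of the unfolded protein response of the endoplasmic reticulum, none passed, and their median was 0.08. The 22 ribosome biogenesis genes also gave no call, although 21 of them were above 0 (median 0.11), against 56.4% of all tested probe sets.

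The clock gene tim, whose protein pairs with Period to repress the activators Clock and Cycle, rose. It read 724 and 497 in selected and 593 and 312 in non-selected 4 h flies, against 166 and 97.5 in selected and 139.7 and 73.1 in non-selected untreated flies. The lowest 4 h array was well above the highest untreated array. The change of tim was 2.16 ± 0.18 (SE), or 4.48-fold (limma adjusted p = 3.20e-07), and it passed in every fit that left out 1 array and without the block.

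Of 9 tested clock genes, 2 rose, none fell and 7 did not pass, while 0.488% of all tested probe sets passed as higher. The median change of the 9 was 0.08. The second riser was vri, a repressor of the Clock gene. It read 76.6, 59.1, 60.7 and 29.6 at 4 h, against 31.1, 33.9, 26.5 and 16.1 untreated, so the groups overlapped through non-selected 4 h replicate 2. Its change was 1.04 ± 0.21 (SE; limma adjusted p = 0.0151), at least 1.64-fold when untreated arrays under 32 were set to 32. It kept its call in 4 of 8 fits that left out 1 array (limma adjusted p up to 0.127) and lost it without the block (limma adjusted p = 0.408) and with values under 32 set to 32 (0.0588). The blue-light receptor gene cry was lower on every 4 h array (226, 184, 199 and 169) than on any untreated array (293, 367, 287 and 232), a change of -0.59 that did not pass (limma adjusted p = 0.0658). Pdp1, an activator of Clock, had a change of 0.63 (limma adjusted p = 0.355). Clk, cyc, cwo, dco and jet lay between -0.39 and 0.13. Transcripts of tim and vri are known to cycle over the day, and since the hour of collection is not given, the part of time of day in these changes was not tested.

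Among detoxification genes calls were few, and 0.488% of all tested probe sets passed as higher. In 6 of 50 cytochrome P450 genes the 4 h arrays lay wholly above the untreated arrays, and in 3 wholly below. The highest change of that list, 2.00, did not pass. Of 50 tested cytochrome P450 genes 1 rose and none fell, with a median change of 0.01. It was Cyp28a5, at 179, 173, 197 and 155 in 4 h flies against 86.7, 103, 79.8 and 97.2 in untreated flies. The groups lay apart, and the change was 0.94 ± 0.16 (SE), or 1.92-fold (limma adjusted p = 0.0034). Of 27 glutathione S-transferase genes 1 rose and none fell, with a median of 0.00. In 4 of the 27 the 4 h arrays lay wholly above the untreated arrays, and in 1 wholly below. Over all tested probe sets these shares were 2.67% and 1.40%. GstD10 read 24.9, 36.9, 57.7 and 38.1 at 4 h and was under 32 on all untreated arrays, at least 1.18-fold higher (log2 change 1.25 ± 0.29, SE; limma adjusted p = 0.0405). Leaving out any 1 array took GstD10 over the threshold (limma adjusted p from 0.0528 to 0.24), as did leaving out the block (0.0581). GstE1 read 1091, 1003, 1107 and 966 at 4 h, against 293, 696, 403 and 546 untreated, and just missed (1.18 ± 0.28, SE; limma adjusted p = 0.0506). Of 16 antioxidant genes none passed, with a median of 0.11 and MsrA, a methionine sulfoxide reductase, at the top with 0.69 (limma adjusted p = 0.0658).

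Among metabolic genes, mdy rose, the only call among 22 lipid genes (0.488% higher over all tested probe sets), whose median was 0.00. The gene encodes midway, a diacylglycerol acyltransferase that makes storage fat. It read 675, 661, 577 and 630.3 at 4 h, against 489, 425, 517 and 382 untreated, a change of 0.50 ± 0.08 (SE; limma adjusted p = 0.00389) without overlap. Genes with a CG number were taken by the size of their change and not by function. CG15096 read 1511, 1236, 1588 and 1542 at 4 h, against 814, 561, 872 and 994 untreated, a 1.84-fold difference (0.88 ± 0.14, SE; limma adjusted p = 0.00274). CG12766 had a change of 1.12. CG3857 had a change of 1.35 (limma adjusted p = 0.0209), and its call was kept in 2 of 8 fits that left out 1 array. None of 11 glycolysis, 13 amino acid breakdown, 17 insulin and FOXO, 12 stress kinase or 3 Turandot and JAK/STAT genes passed, and the medians of these lists lay between 0.01 and 0.07. Pepck2 was the highest of them at 1.29 ± 0.31 (SE; limma adjusted p = 0.0591). Smaller calls, chosen after their values were seen, were for rux, a cyclin-dependent kinase inhibitor (0.48), cni, which helps cargo leave the endoplasmic reticulum (0.30), and the EF-hand gene Pef (0.30). All 3 calls were lost without the block (limma adjusted p = 0.906 for rux, 0.263 for cni and 0.209 for Pef). They were kept in 2, 1 and 0 of 8 fits that left out 1 array, and the arrays of rux overlapped.

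Of the 12 probe sets that fell 2-fold or more, 8 belonged to Jonah, lysozyme and PGRP-SC genes, described first. The Jonah proteases are serine proteases of the midgut. Of 14 tested members 2 fell, none rose and 12 did not pass, while 0.281% of all tested probe sets passed as lower. All 14 changes were below 0, with a median of -1.02 against 0.02 over all tested probe sets. In 9 of the 14 the 4 h arrays lay wholly below the untreated arrays, against 1.40% of all tested probe sets. Jon44E read 387 and 171 in selected and 430.5 and 187 in non-selected 4 h flies, against 1161 and 748 in selected and 2253 and 1255 in non-selected untreated flies. In each line and group replicate 2 was the lower array, and the groups did not overlap. The change of Jon44E was -2.21 ± 0.35 (SE), or 4.63-fold lower (limma adjusted p = 0.00241), and it passed in all 8 fits that left out 1 array.

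Jon25Biii was the second Jonah gene to pass. It read 3464, 3419, 3618 and 3465 at 4 h, against 5084, 6848, 7479 and 8038 untreated. The 4 h arrays were almost level, and all lay below the untreated ones. Its change was -0.95 ± 0.18 (SE), or 1.94-fold lower (limma adjusted p = 0.0111). The call was lost without selected 4 h replicate 2 (limma adjusted p = 0.0805), without non-selected 4 h replicate 2 (0.0629) and without selected untreated replicate 2 (0.0871). Jon66Ci had the largest difference of the family, -2.24, but with an SE of 0.89 it did not pass (limma adjusted p = 0.462). None of 15 trypsin family genes passed, but 12 of them were below 0, and their median was -0.30. In 4 of the 15 the 4 h arrays lay wholly below the untreated arrays, against 1.40% of all tested probe sets.

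The 4 lysozyme genes LysB, LysC, LysD and LysE fell together, out of 7 tested lysozyme genes with a median change of -1.57. Of all tested probe sets, 0.281% passed as lower. In 5 of the 7 the 4 h arrays lay wholly below the untreated arrays, against 1.40% of all tested probe sets. The 4 called genes are digestive lysozymes, and their probe sets are of a type that matches families of similar sequence. They may share signal and do not count as 4 independent measurements. LysC read 1102 and 285 in selected and 1186 and 541 in non-selected 4 h flies, against 3039 and 2678 in selected and 4066 and 2056 in non-selected untreated flies. The 2 replicate 2 arrays at 4 h were lowest, and no 4 h array reached an untreated one. The change of LysC was -2.10 ± 0.38 (SE), or 4.29-fold lower (limma adjusted p = 0.0064). LysB, LysD and LysE fell by 2.97-fold, 3.41-fold and 3.46-fold, with limma adjusted p between 0.00632 and 0.0117. Within replicate 1 the list median was -1.07 and within replicate 2 it was -2.07. Without selected 4 h replicate 2 none of the 4 passed (limma adjusted p from 0.0723 to 0.116). LysB and LysE were also lost without non-selected 4 h replicate 2 (0.0606 and 0.0671) and without selected untreated replicate 2 (0.0802 and 0.0863), and LysE without non-selected untreated replicate 1 (0.0621). Without the block only LysC stayed past the threshold (limma adjusted p = 0.044). LysS, LysX and LysP did not pass, at -0.23, -0.60 and 0.19.

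The PGRP-SC proteins are amidases that cut bacterial peptidoglycan and are known to restrain immune signalling in the gut. A probe set annotated to the near-identical genes PGRP-SC1a and PGRP-SC1b, singled out after its values were seen, read 216, 68.4, 278 and 89.6 at 4 h, against 620.2, 446, 1701 and 595 untreated. It fell by 2.39 ± 0.39 (SE; limma adjusted p = 0.00309), and a second probe set for the pair fell by 1.65 ± 0.25 (SE; limma adjusted p = 0.00185). PGRP-SC2 read 519, 132, 637 and 232 at 4 h, against 887, 463, 1082 and 661 untreated. Here the groups overlapped, while each 4 h array was below its own line and replicate number. The change was -1.22 ± 0.22 (SE; limma adjusted p = 0.00632). It was lost without the block (limma adjusted p = 0.861), without selected 4 h replicate 2 (0.0723) and without non-selected 4 h replicate 2 (0.0528).

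The 6 measured midgut markers, which all belong to the Jonah and trypsin lists themselves, summed to between 14054 and 20032 in 4 h flies and between 21801 and 31253 in untreated flies, without overlap. The part of a lower share of midgut RNA in the falls of digestive genes was not tested. Maltases and amylases, other products of the gut, gave no call among 16 tested genes and had a median change of 0.00.

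**Figure D2:**
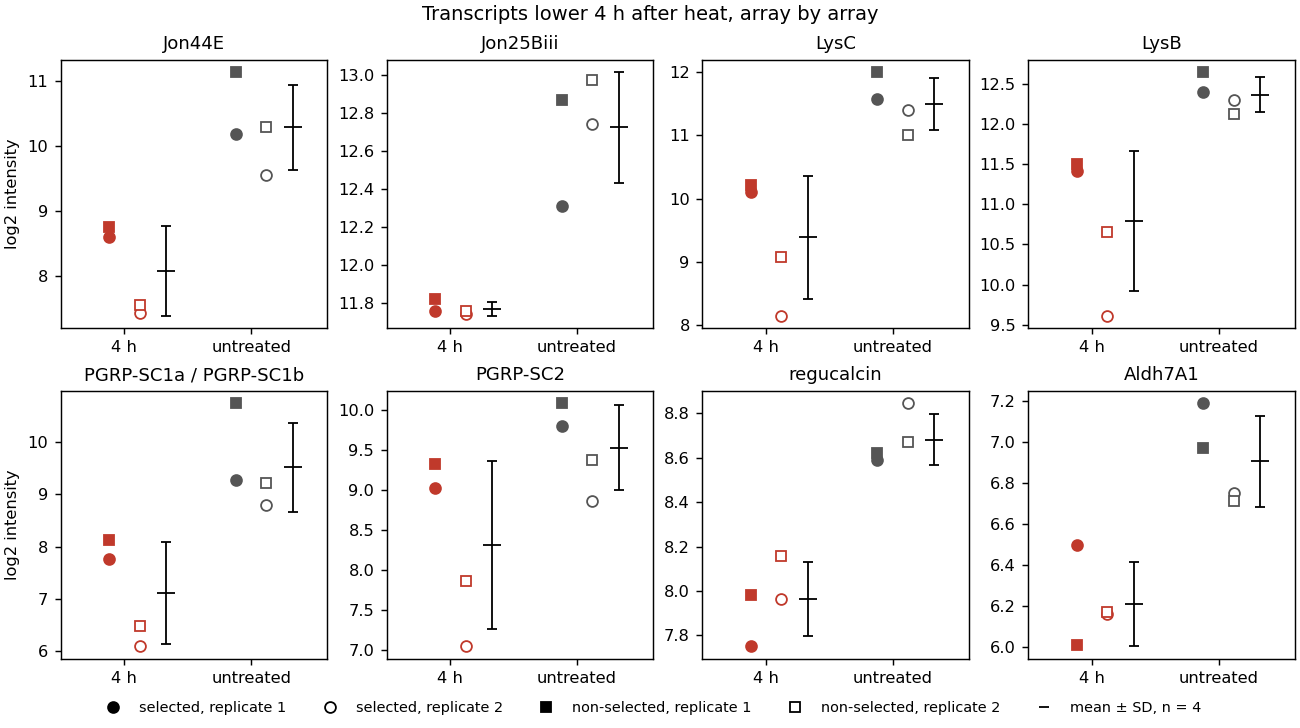
Each panel plots the log2 intensity of 1 transcript on the 4 arrays at 4 h (red, left) and the 4 untreated arrays (grey, right), with circles for selected and squares for non-selected flies, filled for replicate 1 and open for replicate 2, and bars for the mean ± SD of 4 arrays. All 4 h arrays lie below all untreated arrays except for PGRP-SC2, where the groups overlap; the PGRP-SC1a / PGRP-SC1b panel is 1 probe set for both genes, and the axes differ between panels and do not start at 0.

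Outside the gut lists, regucalcin had the smallest adjusted p among the lower genes. Regucalcin is a calcium-binding protein. The gene was the one call among 12 fat body and haemolymph genes (0.281% lower over all tested probe sets), whose median was -0.06. It read 215 and 249.5 in selected and 253 and 286 in non-selected 4 h flies, against 385 and 460.2 in selected and 393 and 407 in non-selected untreated flies. The groups lay apart, and the change was -0.72 ± 0.10 (SE), or 1.64-fold lower (limma adjusted p = 0.000458). Aldh7A1, an aldehyde dehydrogenase of lysine breakdown, read 90.5, 71.6, 64.5 and 72.1 at 4 h, against 146, 108, 125 and 105 untreated, or 1.62-fold lower (-0.70 ± 0.11, SE; limma adjusted p = 0.00195). Both calls stayed in all 8 fits that left out 1 array.

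Further falls were those of CG18180 (-1.28), CG4734 (-1.34), CG7322 (-0.68) and CG2765 (-0.60), each with arrays that did not overlap. CG18180 kept its call in all 8 fits that left out 1 array, CG4734 and CG7322 in 2 of 8 and CG2765 in none. CG1979 and NtR were under 32 on all 4 h arrays, at least 1.15-fold and 1.08-fold lower. Acbp5, an acyl-CoA-binding protein gene named after its values were seen, read 1295, 675, 1378 and 618 at 4 h, against 2019.6, 1509.8, 3084 and 1256 untreated. The groups overlapped, and the change of Acbp5 was -0.998 ± 0.22 (SE; limma adjusted p = 0.0361), kept in 1 of 8 fits that left out 1 array and lost without the block (limma adjusted p = 0.901). The pseudokinase gene trbl, also chosen afterwards, had the smallest called fall, -0.35. Its groups overlapped, and the call was kept in 2 of 8 fits that left out 1 array and lost without the block (limma adjusted p = 0.675).

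Immune genes showed no shared direction. Of 20 tested, imd, the adaptor of the Imd pathway, rose, PGRP-SC2 fell and 18 did not pass, with a median change of 0.06. Over all tested probe sets, 0.488% passed as higher and 0.281% as lower. imd read 28.5, 37.2, 32.1 and 34.6 at 4 h and was under 32 on all untreated arrays, at least 1.03-fold higher (0.58 ± 0.11, SE; limma adjusted p = 0.00982). Its call was lost without selected 4 h replicate 2 (limma adjusted p = 0.0972), without non-selected 4 h replicate 2 (0.0643) and without selected untreated replicate 1 (0.0659). The antimicrobial peptide gene DptB moved in opposite directions in the replicate numbers, with a difference of 2.78 within replicate 1 and -1.12 within replicate 2. It read 492 and 1502 on the replicate 1 arrays and 28.3 and 49.6 on the replicate 2 arrays at 4 h, against 71.4 and 219 on replicate 1 and 34.0 and 195 on replicate 2 untreated arrays. Mtk, another antimicrobial peptide gene, had 1.69 within replicate 1 and -0.53 within replicate 2.

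Metallothioneins, small proteins that bind copper and zinc, also differed between the replicate numbers. MtnB had a difference of 0.98 within replicate 1 and -1.05 within replicate 2, MtnC 0.83 and -0.87, and MtnA 2.11 and 0.11. None of 14 genes of metal binding and transport passed at 4 h, and their median was -0.02.

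Ovary genes had wide differences but no call. Of 19 eggshell genes 17 were below 0, with a median of -0.86, and none passed, while 56.4% of all tested probe sets were above 0. In 3 of the 19 the 4 h arrays lay wholly below the untreated arrays, against 1.40% of all tested probe sets. Vm26Aa, a protein of the vitelline membrane, read 1810.2, 614, 4298 and 842 at 4 h, against 4492, 4569, 9071 and 5996 untreated. All 4 h arrays lay below all untreated ones, yet with an SE of 0.75 the change of -2.03 did not pass (limma adjusted p = 0.388). Within the replicate numbers the difference of Vm26Aa was -1.19 in replicate 1 and -2.86 in replicate 2. The 3 yolk protein genes were at -0.17 to -0.39 without a call, and the summed signal of 9 measured follicle cell markers was 39709 to 64039 in 4 h flies and 53885 to 78094 in untreated flies. The 26 germline and maternal genes and the 20 cell cycle genes gave no call, with medians of -0.01 and 0.00.

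Muscle (20 genes, median -0.06), photoreceptor (11 genes, -0.11), odorant-binding (14 genes, -0.19) and oxidative phosphorylation genes (29 genes, -0.10) gave no call either. Of the 29 oxidative phosphorylation genes 27 were below 0, the lowest at -0.20, while 56.4% of all tested probe sets were above 0. The median residual SD of all tested probe sets, the spread of single arrays around the fit, was 0.19. The shared sign of the 27 genes was not tested. No gene of the male reproductive tract was bright enough to be tested.

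**Figure D3:**
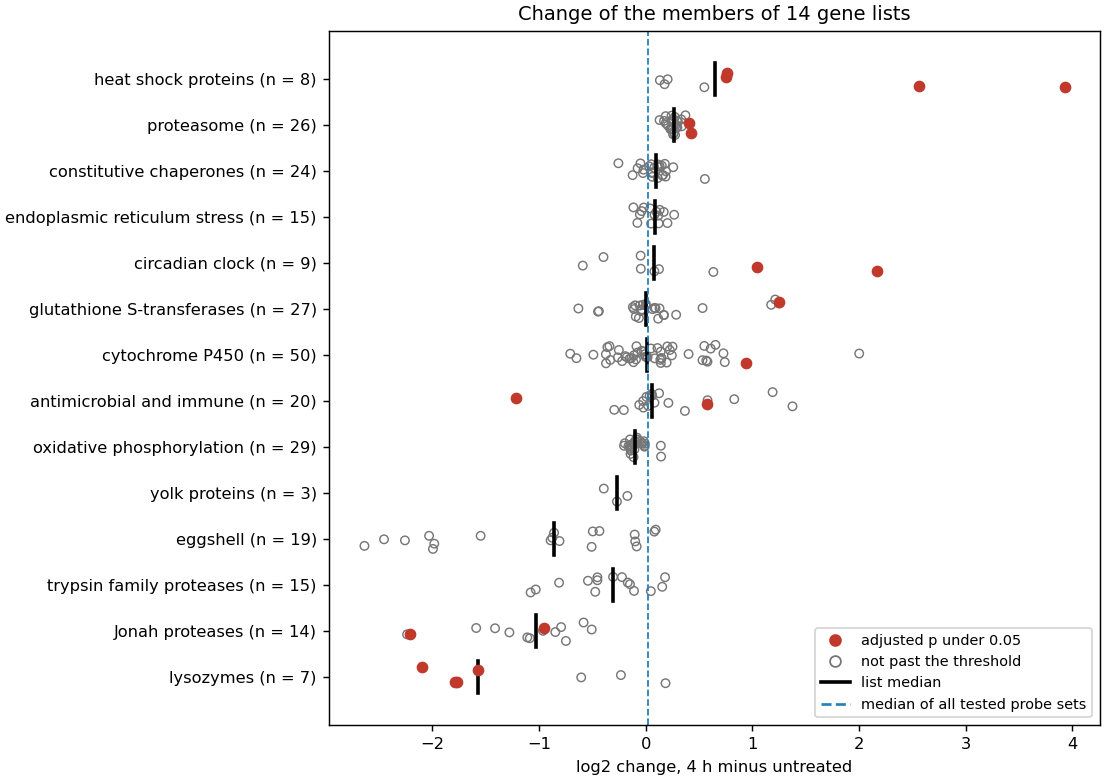
Each point is 1 gene of 14 gene lists, placed by its log2 change at 4 h against untreated flies, in red where the limma adjusted p was under 0.05; black bars are list medians and the dashed line is the median of all tested probe sets, 0.02. The 26 proteasome genes lie in a narrow band from 0.13 to 0.43, and the 14 Jonah proteases all lie below 0.

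No difference between the selected and non-selected lines in their change at 4 h passed the test, with 2 arrays each. The test of the difference between the lines' changes called 0 of 8199 probe sets (0%), with a smallest limma adjusted p of 0.9999, and 43 had an unadjusted p under 0.05. Without non-selected 4 h replicate 2 this test gave 2 calls. The change of Hsp68 was 3.53 ± 0.37 in selected and 4.32 ± 0.37 in non-selected flies (SE), a difference of -0.78 ± 0.52 (SE; limma adjusted p = 0.9999). For stv it was 2.44 ± 0.36 and 2.69 ± 0.36 (SE), and for tim 2.24 ± 0.25 and 2.09 ± 0.25 (SE). Jon44E fell by 1.86 ± 0.50 in selected flies, where it did not pass alone, and by 2.57 ± 0.50 in non-selected flies (SE). Tested within 1 line, 11 probe sets passed in selected flies (0.134%) and 10 in non-selected flies (0.122%). These small counts do not show that the lines act alike.

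Between the lines at 4 h, 1 of 8199 probe sets differed (0.0122%). It was Lsp2, a larval serum storage protein, at 55.9 and 32.2 in selected 4 h flies against 456 and 1004 in non-selected 4 h flies. The difference was -3.99 ± 0.60 (SE; limma adjusted p = 0.0142). The lines already differed before heat, at 121 and 233 in selected against 797 and 1463 in non-selected untreated flies. No probe set passed when either selected or non-selected 4 h replicate 2 was left out, and 2 passed without non-selected 4 h replicate 1.

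**Figure D4:**
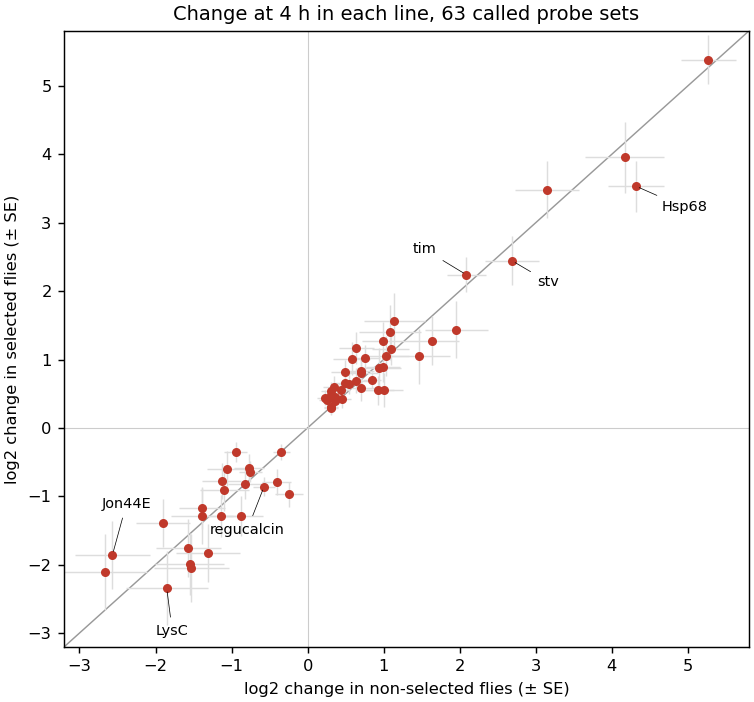
Each of the 63 called probe sets is placed by its log2 change at 4 h in non-selected flies (x axis) and in selected flies (y axis), with bars of ± SE, and the diagonal marks equal change. All 63 have the same sign in both lines; they were chosen on the mean of both lines, so this agreement is partly built in.

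Set against flies 2 h after heat, the 4 h flies had lower heat shock messages. Of 8199 probe sets 60 passed (0.732%), 24 higher (0.293%) and 36 lower (0.439%) at 4 h than at 2 h. Of the 8 heat shock genes 3 were lower, Hsp68, Hsp26 and Hsp27, and the list median was -0.62. Hsp68 read 6619, 6870.2, 9521 and 5805 at 4 h, against 18105, 19986, 19434 and 20826 at 2 h. The groups were far apart, and Hsp68 was lower by 1.47 ± 0.26 on the log2 scale (SE), or 2.76-fold (limma adjusted p = 0.008). Hsp26 was 1.53-fold and Hsp27 1.65-fold lower at 4 h (limma adjusted p = 0.0219 and 0.0313). The difference for stv, -0.90 ± 0.25 (SE), did not pass (limma adjusted p = 0.152). ref(2)P read 3539, 3238, 3796 and 3057 at 4 h, against 4335, 4862, 4620.2 and 4359 at 2 h, 1.34-fold lower (limma adjusted p = 0.0182). Without the block 22 of the 60 calls stayed, and leaving out 1 array gave 20 calls (without non-selected 2 h replicate 1) to 62. Of the 8 arrays left out in turn, 6 brought the count to 36 or fewer. These were all 4 arrays at 4 h (21, 27, 25 and 32) and both non-selected arrays at 2 h (20 and 36). A fit on the arrays of these groups alone gave 0 calls.

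Other genes also differed between 4 h and 2 h. Lower at 4 h was aay, a phosphoserine phosphatase of serine synthesis, at 468, 599.9, 537 and 526, against 960.0, 1119, 974 and 891 at 2 h (1.85-fold; limma adjusted p = 0.00012). Pdk, the kinase that turns off pyruvate dehydrogenase, was 1.52-fold lower (limma adjusted p = 0.000383), and GstE7 and Gclm, of glutathione use and synthesis, were 1.71-fold and 1.38-fold lower. Higher at 4 h was CG15096, at 1511, 1236, 1588 and 1542, against 581, 595, 661 and 716 at 2 h (2.30-fold; limma adjusted p = 0.000141). Hex-C, a hexokinase, was 1.77-fold higher. CG3739 and vanin-like, which resembles pantetheine hydrolases, also passed as higher (limma adjusted p = 0.0225 for CG3739 and 0.049 for vanin-like). At 2 h, 1 array of CG3739 and 3 arrays of vanin-like were under 32, so no fold is given. CG12224 was 3.65-fold lower at 4 h. The genes aay, Pdk, GstE7, Gclm and Hex-C were picked after their values were seen, or as list members.

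Set against 8 h, most differences were transcripts lower at 4 h. Of 8199 probe sets 72 passed (0.878%), 10 higher (0.122%) and 62 lower (0.756%) at 4 h than at 8 h. None of the 8 heat shock genes passed. LysB, LysC, LysD and LysE were again lower at 4 h. LysD read 3504, 908, 3687 and 1776 at 4 h, against 6546, 5308, 7690.4 and 4598 at 8 h, without overlap (2.77-fold lower; limma adjusted p = 0.0267). Acbp5 was 2.64-fold lower at 4 h than at 8 h (limma adjusted p = 0.00266). Both comparisons use the same 4 h arrays, so the low values at 4 h enter each of them.

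Sugar-cutting enzymes of the gut list were lower at 4 h than at 8 h in 5 of 16 tested maltase, amylase and mannosidase genes, and none was higher. Over all tested probe sets, 0.756% passed as lower. LManV, a lysosomal type alpha-mannosidase, read 140.5 and 49.5 in selected and 125 and 48.9 in non-selected flies at 4 h, against 807 and 324 in selected and 792 and 379 in non-selected flies at 8 h. It was 6.55-fold lower at 4 h (limma adjusted p = 0.000653). LManVI was also lower (limma adjusted p = 0.0316), with 2 of its 4 h arrays under 32 and no fold given, and Mal-A2, Mal-A3 and Mal-A4 were 2.28-fold, 2.31-fold and 2.66-fold lower. Alp2, an alkaline phosphatase, read 31.7, 37.7, 109 and 26.7 at 4 h, against 309.9, 263, 205 and 274 at 8 h (limma adjusted p = 0.000798). MtnB and MtnC were lower at 4 h than at 8 h by 2.01 and 2.34 on the log2 scale, with overlapping arrays. MtnC read 977, 158, 3334 and 426 at 4 h, against 5687, 1632, 6333 and 2472 at 8 h, and each 4 h array was below the 8 h array of its own line and replicate number. tim was 1.77-fold lower at 4 h than at 8 h, Scp2, a calcium-binding muscle protein, 3.80-fold lower, and FASN1, fatty acid synthase, 1.64-fold lower.

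Higher at 4 h than at 8 h were Pepck2, of glucose production, at 205, 125, 184 and 75.9 against 67.5, 55.7, 37.6 and 30.4 (limma adjusted p = 0.0135). ref(2)P was 1.36-fold higher at 4 h than at 8 h (limma adjusted p = 0.00896), and hll also passed as higher (limma adjusted p = 0.00238), with all its 8 h arrays under 32 and no fold given. Without the block 24 of the 72 calls stayed. Leaving out 1 array gave 30 calls (without non-selected 4 h replicate 2) to 54 (without non-selected 4 h replicate 1). The count was 33 without selected 4 h replicate 2, 31 without non-selected 8 h replicate 2, 37 without selected 4 h replicate 1, 43 without selected 8 h replicate 1 and 46 without non-selected 8 h replicate 1. A fit on the arrays of these groups alone gave 153.

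Across the whole series the called genes of 4 h followed different courses, all measured against the same untreated arrays. The log2 change of Hsp68 was 5.75 at 0.25 h, 5.68 at 1 h, 5.39 at 2 h, 3.93 at 4 h, 3.29 at 8 h, 1.37 at 16 h, 0.69 at 32 h and 0.35 at 64 h. The change of ref(2)P was 1.06, 1.14 and 1.19 at 0.25, 1 and 2 h, 0.77 at 4 h and 0.34 at 8 h, and it lay between -0.14 and -0.06 afterwards. Rpn3 had its highest value at 4 h, 0.41, with 0.10, 0.15 and 0.23 at the 3 earlier times and 0.25 at 8 h. The change of tim was -0.64 at 0.25 h, -0.09 at 1 h, 1.4995 at 2 h, 2.16 at 4 h and 2.99 at 8 h, and it stayed between 2.42 and 3.12 to 64 h.

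Jon44E and LysD had their lowest value at 4 h. They and Rpn3 are named here for their call at 4 h, so an extreme at that time is partly built in. Neither Jon44E nor LysD passed at 4 h against 2 h (limma adjusted p = 0.465 and 0.543). Jon44E did not pass against 8 h either (limma adjusted p = 0.645). The other called Jonah gene, Jon25Biii, was at -0.954 at 4 h and at -0.998 at 8 h. Jon44E had changes of -0.79, -1.15 and -1.27 at 0.25, 1 and 2 h, -2.21 at 4 h, -1.67 at 8 h, -0.95 at 16 h, -0.65 at 32 h and -0.33 at 64 h. LysD had -0.33, -0.63 and -0.97 at the 3 earlier times, -1.77 at 4 h and -0.30 at 8 h. Acbp5 was at -0.996 at 2 h, at -0.998 at 4 h and at 0.40 at 8 h. The 4 h time had the fewest calls of the 8 times, 63, against 180 at 2 h, 185 at 8 h and 121 to 615 over all other times.

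**Figure D5:**
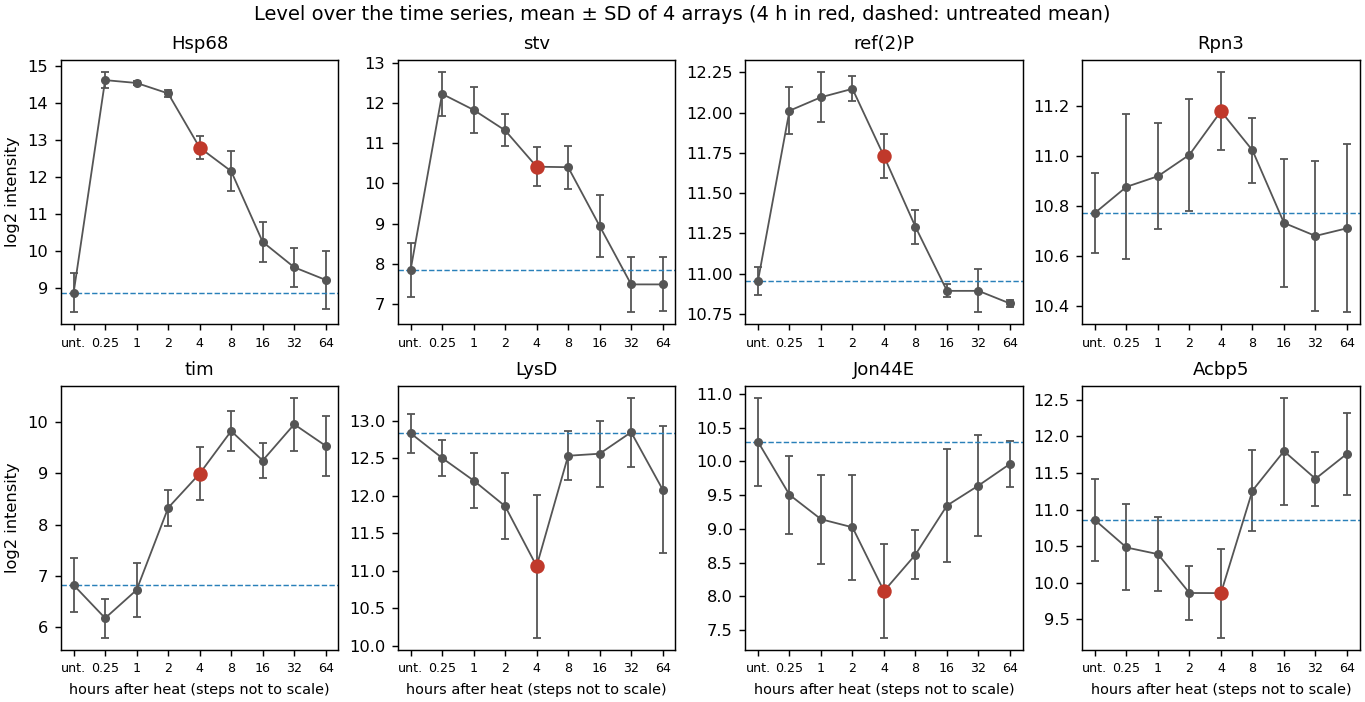
Each panel plots the log2 intensity of 1 transcript (mean ± SD of 4 arrays) in untreated flies and at 8 times after heat, with 4 h in red and the untreated mean as a dashed line; the times are evenly spaced and not to scale, and the axes do not start at 0. Hsp68, stv and ref(2)P are past their highest mean at 4 h, while LysD and Jon44E, named for their fall at 4 h, are at their lowest mean.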

How the data were processed

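Total RNA of whole adult females was labelled with biotin and hybridised to a 1-colour array, per the labels. The deposited table holds intensities, and the submitters' processing notes name GCRMA without a version. This method corrects for background by probe base content, makes arrays comparable and gives 1 value per probe set. The values, from 1.15 to 46856, are on a linear scale as judged by their range. Their log2 was taken with no pseudocount. Arrays carry no read depth, and their number limits the precision.

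Gene names come from the platform annotation at GEO, and symbols were updated through Entrez identifiers with RefSeq's gene table (12394 of 12443 single symbols matched). Probe sets with several genes were attributed to none. The build is not given in the sources used here, and no positions are printed. Tests ran on 8199 of 13966 probe sets, those whose 4 highest arrays averaged 5 or more in log2 (intensity 32).

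One model with 18 groups and the replicate number as a block was fitted to all 36 arrays in R 4.3.3 by limma 3.58.1 (eBayes after lmFit, 17 residual degrees of freedom), so 2 arrays per group share one estimate of the spread. Where nothing says how replicates were raised, p-values measure only the spread between these samples. The contrasts were 4 h minus untreated (both lines, 4 arrays against 4), 4 h minus 2 h, 4 h minus 8 h, the line by heat interaction and selected minus non-selected at 4 h, with a threshold of 0.05. The block belongs to how the comparison was defined. The labels do not say that a number marks a shared batch. Deviations of same-numbered arrays from their group means correlated in all 6 pairs of the 4 groups (r from 0.18 to 0.65), but over all 18 groups r ran from -0.43 to 0.78. Changes within each replicate number, the fit without the block, other filters and scalings, and leaving out each array were the alternatives. On simulated data of the main comparison (8199 probe sets), the fit recovered 91 of 100 changes of 1 and 99 of 100 of 2 on the log2 scale, with 13 false calls among 203. The simulation drew independent normal noise with the fitted spread and gave each probe set a constant shift between replicate numbers. It met the assumptions of the fit by design, so it does not measure recovery or false calls on the real arrays.

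"At least" folds set arrays under 32 on the lower side to 32. The genes named are the 15 highest and 15 lowest called changes against untreated flies with 1 symbol and no overlap, and 5 and 5 for the other times (some with a CG number only are left out). Added to these are members of 31 gene lists, counted and given by their medians, each gene by its brightest probe set. Members and lists were chosen with earlier results of these data known.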

Additional observations from a re-analysis of the deposited data

Results flagged for a closer look

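5 of 72 sets of 4 arrays examined for the named genes held an array set apart from the other 3 by a gap that Dixon's criterion puts at the 95% level, and chance alone gives about 1 in 20 such sets. For CG3857, non-selected untreated replicate 1 read 153.6, against 78.1 to 84.2 on the other untreated arrays. For CG13659, non-selected 4 h replicate 2 read 65.7, against 29.7 to 33.7 on the other 4 h arrays. For CG31265, selected 4 h replicate 1 read 32.3, against 27.4 to 27.5 on the other 4 h arrays, and non-selected untreated replicate 1 read 73.7, against 44.3 to 45.5 on the other untreated arrays. For Rpt3, selected 4 h replicate 2 read 838, against 689.8 to 710.4 on the other 4 h arrays. Without that array the limma adjusted p of Rpt3 was 0.13.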

How the results depend on the processing

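None of the 36 named genes' changes against untreated flies turned sign under the alternatives that were run. The 36 are the 30 genes taken by rule and the other called list members. Genes picked only after their values were seen are not among them. The arrays of the 30 did not overlap between groups by the rule itself, so their signs could hardly turn. After quantile normalization the list medians of glutathione S-transferases, stress kinase and cell cycle genes, all near 0, turned below 0 (-0.026, -0.0015 and -7.6e-05). The median of all tested probe sets was -0.01 within replicate 1. Against untreated flies the 63 calls became 29 without the replicate block (the unpaired fit), 180 within replicate number 1 alone, 47 within replicate number 2 alone, 44 from the 8 arrays alone (24 of them among the 63), and 27 to 56 when 1 array was left out. The other settings (no filter, a stricter filter, 2 rescalings, a floor of 32, trend and robust eBayes) gave 51 to 73. Against 2 h, the 60 calls became 22 without the replicate block, 39 with a mean of all arrays of at least 6, 0 from the compared arrays alone and 20 to 62 when 1 array was left out. Against 8 h, the 72 calls became 24 without the replicate block, 47 with the stricter filter, 153 from the compared arrays alone and 30 to 54 when 1 array was left out. The interaction gave 0 to 2 calls and the line difference 0 to 2 when 1 array was left out, and the line difference gave 4 from the 4 h arrays alone. Of 36 named genes, 20 kept their call without the block, 16 from the 8 arrays alone, 14 in all 8 fits that left out 1 array, and all 36 after quantile normalization and with trend and robust eBayes. The cause of these changes was not tested. The dim genes GstD10, imd, NtR, CG1979, CG11893, CG13659, CG15358, CG31265 and vri lost their call with values under 32 set to 32. Arrays give no detection calls here, so low intensities limit those genes most. The 2 rescalings moved the median change of all tested probe sets to 0.01 and 0.03.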
